A study of Mus musculus with 4 samples.

Results

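Acyl-CoA synthetases join a fatty acid to coenzyme A, the step that every fatty acid must pass before it can be oxidised, elongated, built into lipid or coupled to an amino acid. The 10 genes described here were chosen by name from 3 families: 4 long-chain synthetases (Acsl1, Acsl3, Acsl4, Acsl5), 3 medium-chain synthetases (Acsm1, Acsm3, Acsm5) and 3 members of the SLC27 family (Slc27a2, Slc27a4, Slc27a5), whose proteins take up fatty acids and activate very long chains or bile acids. They are 10 of the 23920 genes in the deposited table, they occupy 17 of its transcript rows, and all 10 passed the filter on low values. The values in the text are sums over the rows of a gene, in FPKM (fragments per kilobase of transcript and M, or mega, mapped fragments).

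Liver RNA came from male C57BL/6 mice aged 12 weeks after a fast of 24 h and 12 h of refeeding. There were 2 libraries labelled SREBP1c WT and 2 labelled SREBP1c KO, and both genotypes shared the strain, sex, age and feeding schedule. SREBP1c is the transcription factor that insulin uses to raise fatty acid synthesis in liver, and its gene is Srebf1. The construction of the KO allele, any pooling of animals and whether each library is a separate animal are not stated here, so a p-value reflects the spread among these libraries alone, and that spread may be technical.

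In the liver the fate of a fatty acid depends in part on which synthetase activates it. Acsl1 is the main long-chain enzyme of hepatocytes. Acsl3 and Acsl5 sit on the endoplasmic reticulum and lipid droplets or mitochondria, and Acsl4 prefers arachidonic acid, a polyunsaturated fatty acid. The ACSM enzymes work in the mitochondrial matrix on medium-chain and aromatic acids, and Slc27a5 activates bile acids before they are coupled to taurine or glycine.

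The targeted gene was measured first. Srebf1 stood at 63.7 and 58.2 FPKM in WT, against 8.63 and 6.97 FPKM in KO, and it fell by 2.82 on the log2 scale (limma adjusted p = 0.00172). That call was lost without WT replicate 1 (limma adjusted p = 0.136), without WT replicate 2 (limma adjusted p = 0.0923) and without a filter on low values (limma adjusted p = 0.104). Over 9820 genes with a mean of at least 1 FPKM, limma called 7 at an adjusted p under 0.05 (0.0713%), 1 higher and 6 lower in KO. With upper-quartile scaling 0 were higher and 6 lower, and with quantile normalization 0 were higher and 4 lower. The steps between low FPKM values gave a rough estimate of 22.9 M fragments for replicate 1 and 20.8 M for replicate 2, the same in both groups. The true depth of each library is not stated here. The 8 hepatocyte markers listed were all present, and the 5 of 6 lymphocyte markers with a row summed to at most 1.53 FPKM. KO replicate 2 stood apart in 12 acute phase genes, which summed to 19193 FPKM there and to between 6220 and 9328 FPKM in the other libraries, and in 8 Kupffer cell and macrophage markers, which summed to 123 FPKM against 73.6 to 87.9 FPKM. In a bulk sample, fewer cells of a type and less RNA per cell cannot be told apart.

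None of the 10 synthetase genes passed the limma threshold over all genes, and 2 of 10, Acsl5 and Slc27a4, had an unadjusted p under 0.05, which 7.75% of all genes had. Acsl5 was the only one of the 10 whose mean differed by more than 1.5-fold, at 112.6 ± 13.0 FPKM in WT against 71.6 ± 7.42 FPKM in KO (SD over 2 libraries in each group), a 1.57-fold lower mean. Both KO libraries lay below both WT libraries for 3 genes, Acsl5, Acsm1 and Acsm5 (16.4% of all genes did so), and above them for Slc27a4 (22.4% of all genes). The other 6 overlapped between the groups. The median log2 difference of the 10 was −0.08, and that of all genes tested was 0.02. Of the 10 genes, 8 had a difference smaller than 0.2 on the log2 scale, a range that held 76.2% of all genes.

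**Figure D1:**
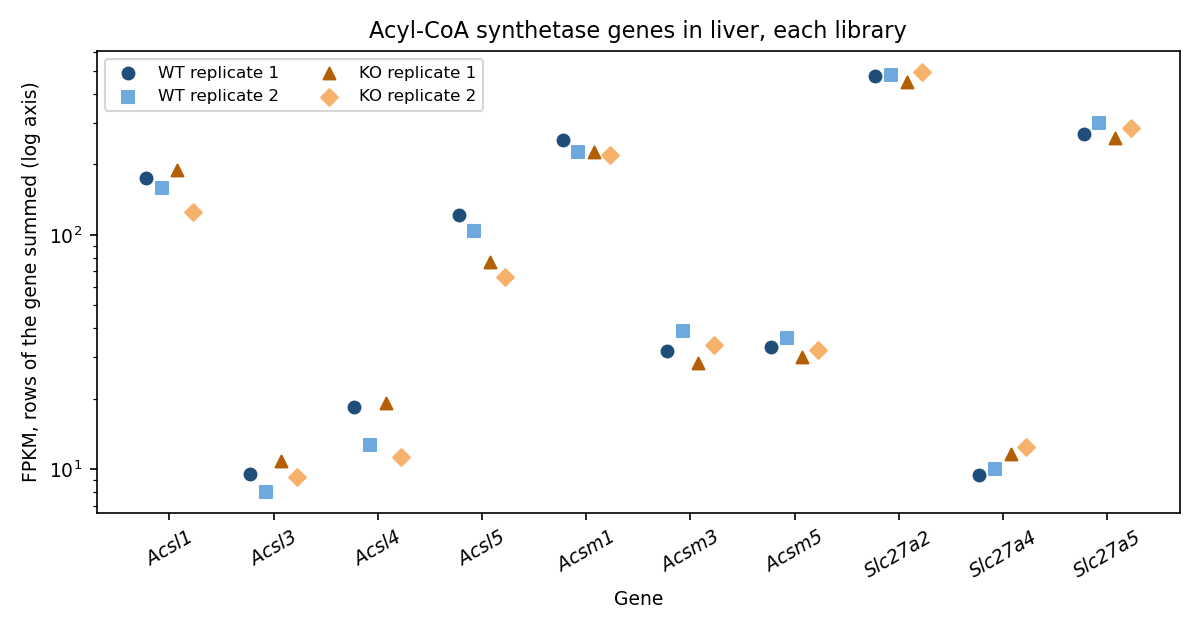
FPKM of each of the 10 genes (log axis) in each of the 4 libraries, shown by colour and marker. Slc27a2 is the highest gene in every library, Acsl5 is lower in both KO libraries (76.8 and 66.3 FPKM) than in WT (121.8 and 103.4 FPKM), and most other genes overlap between the groups.

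FPKM is scaled to transcript length, so levels can be set side by side across the genes. Slc27a2 had the highest mean level, at rank 166 of the 9820 genes, and Acsl3 the lowest, at rank 4314. The 10 genes summed to 1396 and 1373 FPKM in WT and to 1299 and 1292 FPKM in KO, so both KO sums lay below both WT sums. The mean sums differed by −88.6 FPKM (KO minus WT), with Acsl5 contributing a mean difference of −41.1 FPKM and Acsm1 one of −16.8 FPKM. By family, the SLC27 genes made up 55.7% ± 2.59 of the WT sum and 58.4% ± 4.31 of the KO sum (SD, n = 2 each), the ACSM genes 22.3% ± 0.687 and 21.97% ± 0.243, and the ACSL genes 21.96% ± 1.91 and 19.6% ± 4.56. For each family the shares of the genotypes differed by less than the SD of at least 1 group. As a level, the ACSM sum was 318.4 and 299.8 FPKM in WT, against 283.2 and 286.2 FPKM in KO, and its groups did not overlap. The ACSL sum was lowest in KO replicate 2, at 212 FPKM, and overlapped between the groups, with 325 and 283 FPKM in WT and 297 FPKM in KO replicate 1.

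Acsl5 (gene number 433256; chromosome 19, 55251861 to 55296628, GRCm38, the assembly also called mm10) has a single row in the table, and the non-coding gene Gm31595 lies within its bounds. Its 121.8 and 103.4 FPKM in WT stood against 76.8 and 66.3 FPKM in KO, so that 26.6 FPKM separated the lowest WT library from the highest KO library. The log2 difference, taken as KO minus WT after adding 1 FPKM, was −0.65 with a standard error of 0.14, a 95% interval of −0.98 to −0.31 and a limma adjusted p of 0.32. Of all genes tested, 0.754% had groups that did not overlap and a difference as low or lower. With a library left out the difference ran from −0.76 to −0.53. Without KO replicate 1 it was −0.75 and passed (limma adjusted p = 0.0235), in a fit that called 306 genes (3.12%). That fit has a KO group of 1 library, as each fit without a library leaves 1 group with a lone sample that is assumed to vary like the other group. Without KO replicate 2 Acsl5 was −0.54 and did not pass (limma adjusted p = 0.149). Over all alternatives the limma adjusted p ran from 0.0235 to 1. The implied number of Acsl5 fragments was between 5853 and 11837 per library, and the counting error of the lowest was 1.31%, well under the spread between replicates. Some marker sums also did not overlap between the genotypes: 8 hepatocyte markers summed to 20018 and 22090 FPKM in WT, against 19566 and 18529 FPKM in KO. Apoa1 alone gave 8029 and 8880 FPKM in WT, against 7802 and 7619 FPKM in KO. Among the 8, 4 were lower in both KO libraries (16.4% of all genes were), and Ttr, Apoc3 and Tat overlapped. Hnf4a was higher in both KO libraries, with 120.4 and 106.2 FPKM in WT, against 121.0 and 142.5 FPKM in KO. The 6 cholangiocyte markers summed to 25.4 and 23.5 FPKM in WT, against 50.3 and 41.7 FPKM in KO. Spp1 alone gave 45.5 and 37.0 FPKM in KO. Of the 3 tested, 2 (Spp1 and Krt19) were higher in both KO libraries (22.4% of all genes were). Sox9 overlapped, with 2.20 and 1.44 FPKM in WT, against 1.18 and 2.09 FPKM in KO. Krt7 and Epcam were also higher in both KO libraries but had at most 0.699 and 0.670 FPKM, and Cftr had at most 0.034 FPKM. The 6 adipocyte markers summed to 26.1 and 16.7 FPKM in WT, against 30.9 and 28.8 FPKM in KO. Lep was listed at 0 in all libraries, and Adipoq, Plin1 and Retn had at most 0.170, 0.073 and 0.110 FPKM. Only 2 of the 6, Cidec and Fabp4, were tested. Cidec had 3.09 and 2.23 FPKM in WT, against 8.41 and 6.75 FPKM in KO, while Fabp4 overlapped between the groups. The 8 endothelial markers summed to 57.8 and 59.99 FPKM in WT, against 62.8 and 76.3 FPKM in KO. Clec4g alone gave 29.5 and 32.1 FPKM in WT, against 36.0 and 41.3 FPKM in KO. It was 1 of 3 endothelial markers higher in both KO libraries, with Pecam1 and Lyve1 (22.4% of all genes were). Stab2, Kdr, Cdh5, Stab1 and Oit3 overlapped between the groups. The part of these marker sums in the Acsl5 difference was not tested.

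Acsl1 (gene number 14081; chromosome 8, 46471037 to 46536051) was the most abundant long-chain synthetase, with 175.4 and 158.8 FPKM in WT, against 189.8 and 124.9 FPKM in KO. The first KO library was the highest of all and KO replicate 2 the lowest, so the KO group enclosed the WT group. The log2 difference was −0.12 (SE 0.21, 95% interval −0.63 to 0.40, limma adjusted p = 0.92), and its sign turned to 0.18 without KO replicate 2. The acute phase and macrophage sums given above were highest in the same library, and their part in the low Acsl1 value was not tested. The ratio of Acsl1 to Acsl5 FPKM was 1.44 and 1.54 in the WT libraries and 2.47 and 1.88 in the KO libraries. Within the summed ACSL level, Acsl5 accounted for 37.5% and 36.6% in WT against 25.9% and 31.3% in KO, while Acsl1 accounted for 53.9% and 56.1% in WT against 64.0% and 59.0% in KO. Both shares did not overlap between the genotypes, although the level of Acsl1 itself did. Acsl1 and Acsl5 make up most of this sum, so a lower Acsl5 level by itself raises the Acsl1 share and their ratio. The Acsl1 share and the ratio are therefore not results separate from the Acsl5 level.

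**Figure D2:**
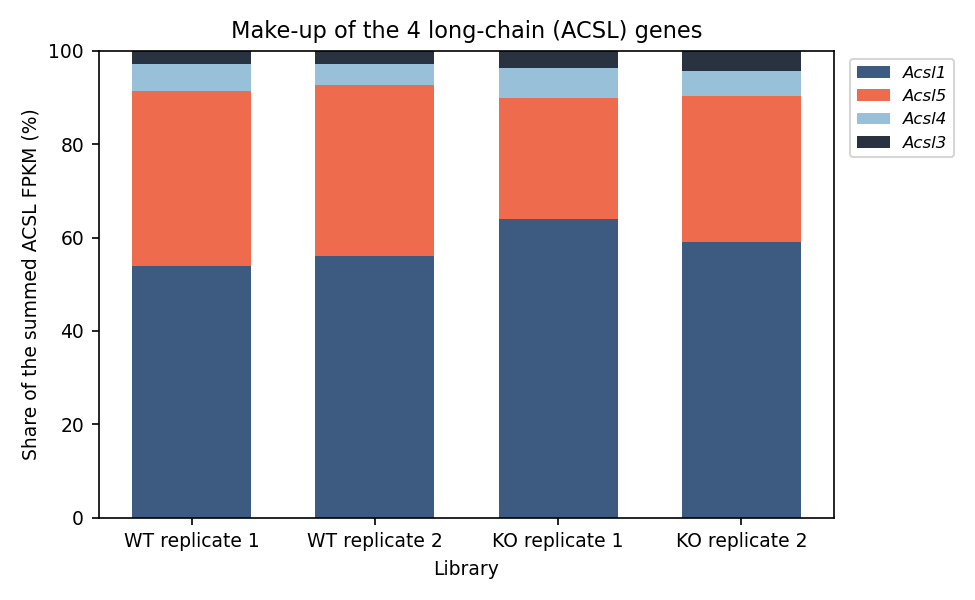
Stacked bars give the share of each of the 4 ACSL genes in their summed FPKM (percent, y axis) in each library. The Acsl5 part is 37.5% and 36.6% in WT, against 25.9% and 31.3% in KO, and the Acsl1 part is larger in each KO library than in either WT library.

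The stretches directly before the start sites of Acsl5 and Acsl1 are printed because these genes are the main long-chain synthetases of this liver and differed in how they compared between genotypes. Each is the 250 bases before a start site (RefSeq, GRCm38.p6, plus strand), and capitals mark matches on either strand to 4 motifs: TCACNCCAC, a form of the sterol regulatory element that SREBP proteins bind; CACGTG, an E-box; CCAAT, the site of NF-Y; and GGGCGG, the site of Sp1. A match on the minus strand appears as the reverse complement. The first lies at chr19:55253119-55253368, the second at chr8:46470787-46471036 and the last at chr8:46490716-46490965.
Acsl5: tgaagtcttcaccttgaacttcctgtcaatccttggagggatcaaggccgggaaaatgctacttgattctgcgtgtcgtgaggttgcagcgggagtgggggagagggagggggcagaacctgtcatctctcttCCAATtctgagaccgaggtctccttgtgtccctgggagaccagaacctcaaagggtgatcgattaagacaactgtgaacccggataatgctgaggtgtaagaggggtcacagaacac
Acsl1, upstream start: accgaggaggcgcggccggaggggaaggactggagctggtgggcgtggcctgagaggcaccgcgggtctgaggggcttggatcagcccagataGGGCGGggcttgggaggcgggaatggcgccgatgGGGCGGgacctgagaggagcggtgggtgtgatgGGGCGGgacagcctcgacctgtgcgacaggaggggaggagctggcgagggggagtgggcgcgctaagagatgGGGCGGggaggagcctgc
Acsl1, downstream start: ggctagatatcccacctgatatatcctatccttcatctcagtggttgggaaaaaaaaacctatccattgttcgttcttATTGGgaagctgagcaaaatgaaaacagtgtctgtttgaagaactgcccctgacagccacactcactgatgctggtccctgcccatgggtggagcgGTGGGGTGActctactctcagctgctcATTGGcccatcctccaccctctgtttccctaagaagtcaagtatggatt

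The Acsl5 window held 1 CCAAT, 117 bases before the start site, and no match to the other motifs. It lies within the RefSeq bounds of Acsl5, which begin at 55251861, and the stretch before that base was not searched. The upstream Acsl1 window held 4 GGGCGG matches, and the downstream one held TCACNCCAC on the minus strand, from 76 bases before the start site, with CCAAT on the minus strand at 172 and 49 bases. Of 32851 promoter windows of the same length, 1.05% held TCACNCCAC, 6.02% CACGTG, 33.8% CCAAT and 32.7% GGGCGG. RefSeq windows were matched for 9 of the 10 genes, 10 windows in all: 6 held CCAAT, 5 held GGGCGG, 1 held CACGTG (Acsm5) and 1 held TCACNCCAC (the downstream start of Acsl1). The windows of Acsm1, Acsm5 and Slc27a2 overlap exons of GENCODE models of the 10 genes. That of Slc27a2, from 126552774 to 126553023, lies wholly behind the GENCODE start of its row, at 126552407. The upstream Acsl1 window also lies within the bounds of the non-coding gene Gm31050. These are matches of letters in a short window and show neither binding nor its absence.

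The pair of Acsl1 rows in the table start at these sites, by the GENCODE models matched to them. The row NM_007981, which starts at 46471037, had 171.9 and 157.3 FPKM in WT, against 187.7 and 123.1 FPKM in KO, and held between 98.04% and 99.0% of the Acsl1 level in every library. The row NM_001302163, which starts at 46490966 behind the window with TCACNCCAC, had 3.43 and 1.51 FPKM in WT, against 2.04 and 1.73 FPKM in KO. It was a minor part of Acsl1 in all 4 libraries, and its groups overlapped.

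Acsl3 (gene number 74205; chromosome 1, 78657825 to 78707743), the synthetase of the endoplasmic reticulum and nascent lipid droplets, had 9.57 and 8.002 FPKM in WT, against 10.8 and 9.31 FPKM in KO. The groups overlapped, and the log2 difference was 0.18 (SE 0.13, 95% interval −0.15 to 0.50, limma adjusted p = 0.785). In RefSeq it overlaps Utp14b, which starts at the same base. Its 3 rows did not move together. The row NM_001136222, the only one higher in both KO libraries, was listed at 0.0010 FPKM in WT replicate 1 and at 1.33 FPKM in WT replicate 2, against 1.63 and 2.24 FPKM in KO, and NM_001033606 had 5.12 and 4.78 FPKM in WT, against 5.46 and 2.25 FPKM in KO. The row NM_028817 had 4.44 and 1.89 FPKM in WT, against 3.72 and 4.82 FPKM in KO. The split among the rows thus differed between libraries of the same group, while the summed level stayed within 8.002 to 10.8 FPKM. Tested by its highest row alone, Acsl3 had a difference of −0.38 (limma adjusted p = 0.84), the opposite sign to the sum.

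Acsl4 (gene number 50790; chromosome X, 142317993 to 142390802), the arachidonate-preferring synthetase, had 18.5 and 12.7 FPKM in WT, against 19.2 and 11.2 FPKM in KO. Replicate 1 was the higher library in both groups, and the groups overlapped fully (log2 difference −0.06, SE 0.27, 95% interval −0.73 to 0.61, limma adjusted p = 0.9747). The sign turned when WT replicate 1 (0.20) or KO replicate 2 (0.30) was left out, and also when the highest row alone was tested (0.0078). Acsl4 had the widest interval of the 10 genes. Its main rows, NM_019477 and NM_001033600, have lengths of 4959 and 4956 bases in GENCODE and the same start and end. The first held 57.2% and 78.5% of the Acsl4 level in WT, against 77.7% and 63.0% in KO, and neither row separated the groups.

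**Figure D3:**
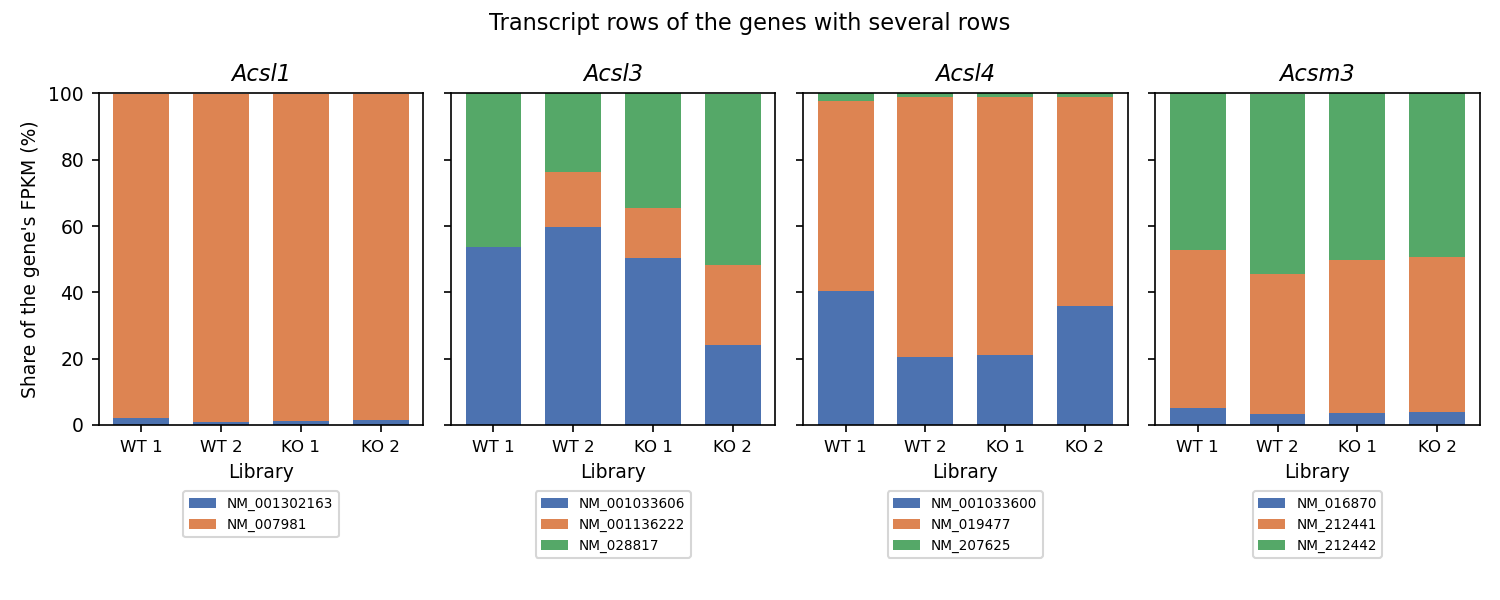
For each of the 4 genes with several transcript rows, stacked bars give the share of each row in the gene's FPKM (percent) in each library. Acsl1 is nearly all 1 row, Acsm3 keeps similar shares in all 4 libraries, the largest Acsl4 row is NM_019477 in every library, and the leading Acsl3 row differs between the KO libraries (NM_001033606 in replicate 1, NM_028817 in replicate 2).

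The medium-chain genes lie in 1 cluster on chromosome 7, in the order Acsm5, Acsm2, Acsm1, Acsm4 and Acsm3, which spans 259 kb. Acsm1 (gene number 117147; 119617757 to 119662515), a mitochondrial synthetase of short- and medium-chain acids, was by far the highest, with 253.1 and 224.8 FPKM in WT, against 224.5 and 219.9 FPKM in KO. The KO libraries were lower by a gap of only 0.279 FPKM, and the log2 difference was −0.10 (SE 0.12, 95% interval −0.40 to 0.20, limma adjusted p = 0.878). Acsm5 (gene number 272428; 119526131 to 119543360) had 33.2 and 36.2 FPKM in WT, against 30.2 and 32.2 FPKM in KO. Its gap was 0.971 FPKM and its difference −0.15 (SE 0.11, 95% interval −0.41 to 0.11, limma adjusted p = 0.778).

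Acsm3 (gene number 20216; 119760883 to 119784896) had 32.1 and 38.8 FPKM in WT, against 28.5 and 34.0 FPKM in KO, which overlapped (log2 difference −0.17, SE 0.14, 95% interval −0.53 to 0.18, limma adjusted p = 0.811). Its 3′ end overlaps Eri2 in RefSeq, as Acsm5 overlaps Pdilt, and the bounds of Acsm1 take in parts of the non-coding genes Gm39079 and Gm19950. No source used here says whether counting was stranded, so fragments from such overlaps may be counted for either gene. The rows NM_212441 and NM_212442 each held between 42.0% and 54.6% of its level in every library, and NM_016870 held at most 5.10%. All 3 medium-chain genes thus had a small negative difference whose interval included 0. Their neighbours in the cluster were near the floor: Acsm2 had at most 0.641 FPKM, and Acsm4 was listed at 0 in all 4 libraries. The ACSM genes are related copies, so some fragments may have been shared among them in counting.

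**Figure D4:**
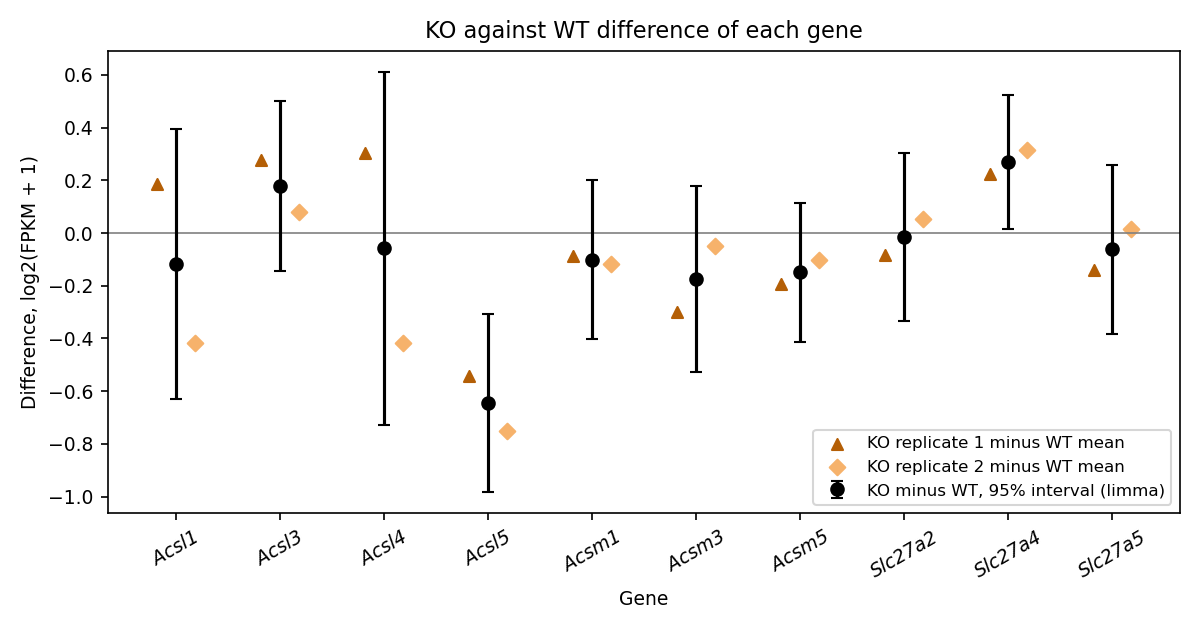
Difference (KO minus WT, in log2 units of FPKM + 1) for each gene: black points with 95% limma intervals, and each KO library minus the WT mean in colour. The interval of Acsl5 (−0.98 to −0.31) lies below 0 and that of Slc27a4 (0.02 to 0.53) above it before adjustment over all genes, and the KO libraries of Acsl1 and Acsl4 lie on opposite sides of 0.

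Slc27a2 (gene number 26458; chromosome 2, 126553024 to 126588243), which encodes FATP2, a fatty acid transporter and very-long-chain synthetase, had 474.1 and 480.9 FPKM in WT, against 450.4 and 495.7 FPKM in KO. The log2 difference was −0.02 (SE 0.13, limma adjusted p = 0.986), and the 95% interval of −0.33 to 0.30 corresponds to a KO level between 0.794 and 1.23 times that of WT. The KO libraries enclosed both WT libraries, and the sign turned to 0.05 without KO replicate 1. Slc27a5 (gene number 26459; chromosome 7, 12988346 to 12998192), the bile acid synthetase FATP5, had 268.6 and 299.2 FPKM in WT, against 257.4 and 286.4 FPKM in KO. Its groups overlapped, with a difference of −0.06 (SE 0.13, 95% interval −0.38 to 0.26, limma adjusted p = 0.934).

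Slc27a4 (gene number 26569; chromosome 2, 29802634 to 29817522), which encodes FATP4, was the only one of the 10 genes higher in both KO libraries. It had 9.48 and 10.1 FPKM in WT, against 11.6 and 12.4 FPKM in KO, with a gap of 1.53 FPKM between the groups. The log2 difference was 0.27 (SE 0.10, 95% interval 0.02 to 0.53), it lay between 0.23 and 0.32 with any library left out, and it did not pass over all genes (limma adjusted p = 0.625). The implied number of Slc27a4 fragments was between 848 and 1076 per library, the fewest of the 6 genes with a single row, and the counting error of the lowest was 3.43%.

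The other genes of acyl-CoA metabolism were taken from 8 lists, and none of their members passed the limma threshold. Of 14 further synthetases, 6 reached a mean of 1 FPKM: Slc27a1, Acss2, Acss3, Acsf2, Acsf3 and Aacs. Acss2, which makes acetyl-CoA from acetate in the cytosol, had 45.4 and 40.5 FPKM in WT, against 51.0 and 24.3 FPKM in KO. Aacs, acetoacetyl-CoA synthetase, had 27.0 and 14.9 FPKM in WT, against 28.2 and 5.54 FPKM in KO. Both were highest in KO replicate 1 and lowest in KO replicate 2, as Acsl1 and Acsl4 were. With KO replicate 2 as the only KO library both passed, at −0.79 for Acss2 and −1.69 for Aacs (limma adjusted p = 0.0167 and 0.0171), and turned sign without KO replicate 2 (0.24 and 0.47). Acss3, a mitochondrial synthetase of short chains, had 2.64 and 3.31 FPKM in WT, against 1.76 and 2.63 FPKM in KO.

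Acyl-CoA thioesterases, which reverse the reaction, differed little, with 10 of 13 tested, 7 positive and 3 negative differences and a median of 0.06. Acot8, the peroxisomal thioesterase, had 13.3 and 12.3 FPKM in WT, against 13.8 and 14.4 FPKM in KO, and Them4 had 7.52 and 7.34 FPKM in WT, against 7.22 and 9.42 FPKM in KO. Of the 5 acyl-CoA binding proteins, 2 had a positive and 3 a negative difference (median −0.02). Dbi, the main acyl-CoA carrier of the cytosol, had 927.2 and 842.8 FPKM in WT, against 881.3 and 837.9 FPKM in KO. Acbd5, which tethers peroxisomes to the endoplasmic reticulum, had 60.5 and 59.9 FPKM in WT, against 55.3 and 54.9 FPKM in KO, and Acbd4 had 13.8 and 16.7 FPKM in WT, against 17.4 and 16.9 FPKM in KO. Over the 15 genes tested in these lists, 2 were higher and 1 lower in KO without overlap, against 22.4% and 16.4% of all genes.

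Genes that carry acyl groups into mitochondria and peroxisomes had 6 positive and 2 negative differences among 8 tested (median 0.21), and 4 of the 8 were higher in both KO libraries, against 22.4% of all genes. Slc22a5, the carnitine importer of the cell surface, had 3.39 and 3.75 FPKM in WT, against 4.44 and 4.82 FPKM in KO (log2 difference 0.30, limma adjusted p = 0.6). Crot, peroxisomal carnitine octanoyltransferase, had 196.8 and 215.5 FPKM in WT, against 228.1 and 334.2 FPKM in KO, and its difference was 0.70 without KO replicate 1 (limma adjusted p = 0.0181) and 0.15 without KO replicate 2 (limma adjusted p = 0.769). Cpt1a, the entry enzyme of mitochondrial oxidation, had 28.4 and 36.2 FPKM in WT, against 33.6 and 52.2 FPKM in KO, with KO replicate 2 the highest library for both.

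For conjugation, the partner of Slc27a5 is Baat, which couples activated bile acids to an amino acid, and it had 121.5 and 134.7 FPKM in WT, against 118.9 and 128.9 FPKM in KO. Baat and Slc27a5 had the same order of libraries, highest in WT replicate 2 and lowest in KO replicate 1. Acsm3 had this order too, so it is not particular to the pair. Keg1, of the glycine N-acyltransferase family, had 163.4 and 129.6 FPKM in WT, against 164.0 and 90.1 FPKM in KO. Like Acsl1, it was highest in KO replicate 1 and lowest in KO replicate 2. The 3 conjugation genes tested had small negative differences (median −0.05).

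The acyl-CoA acceptors of lipid synthesis had 3 positive and 5 negative differences among 8 tested, with a median of −0.02. The low side was held by Gpam, the acyltransferase that begins glycerolipid synthesis, and Lpcat3, which places polyunsaturated chains into phospholipids. Gpam had 69.1 and 51.5 FPKM in WT, against 27.8 and 21.96 FPKM in KO (log2 difference −1.24, SE 0.18, limma adjusted p = 0.165). Among the alternatives that kept all 4 libraries, Gpam passed only with the replicate number as a block (limma adjusted p = 0.0237). It did not pass without a filter (limma adjusted p = 0.502), with quantile normalization (limma adjusted p = 0.221) or by transcript rows (limma adjusted p = 0.399). With a library left out its difference ran from −1.445 to −1.028. Lpcat3 had 33.3 and 31.3 FPKM in WT, against 26.2 and 20.4 FPKM in KO (log2 difference −0.46, limma adjusted p = 0.527). Its difference was −0.64 without KO replicate 1 (limma adjusted p = 0.035) and −0.29 without KO replicate 2 (limma adjusted p = 0.506).

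Gpam ends 125 kb before Acsl5 on chromosome 19, a position that was looked at after the values were seen. Within 500 kb of Acsl5, 4 other genes were tested. Zdhhc6, which begins 1.59 kb behind Acsl5, had 34.2 and 33.2 FPKM in WT, against 35.4 and 36.7 FPKM in KO, the opposite direction to Acsl5. Vti1a had 2.55 and 2.66 FPKM in WT, against 2.34 and 2.22 FPKM in KO, and Tcf7l2 had 3.21 and 2.71 FPKM in WT, against 2.61 and 2.23 FPKM in KO. The log2 differences of Vti1a (−0.14) and Tcf7l2 (−0.21) were smaller in size than those of Acsl5 (−0.65) and Gpam (−1.24), and none of these genes passed over all genes.

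Of 7 lipogenic enzymes, all had a negative difference (median −0.85) and 5 did not overlap, against 16.4% of all genes. None passed. Acacb, the acetyl-CoA carboxylase of the mitochondrial membrane, had 12.2 and 8.72 FPKM in WT, against 2.47 and 1.93 FPKM in KO (log2 difference −1.83, limma adjusted p = 0.0544). Among the alternatives that kept all 4 libraries, Acacb passed the threshold of 0.05 with the replicate block (limma adjusted p = 0.00874). It also passed with a robust prior (limma adjusted p = 0.0255) and with a pseudocount of 0.1 (limma adjusted p = 0.0416). It did not pass without a filter (limma adjusted p = 0.42) or at a minimum of 5 FPKM (limma adjusted p = 0.112). Nor did it pass with quantile normalization (limma adjusted p = 0.14) or by transcript rows (limma adjusted p = 0.238). With a library left out its difference ran from −2.04 to −1.61. Scd1, the stearoyl-CoA desaturase, had 290.7 and 149.2 FPKM in WT, against 102.2 and 92.2 FPKM in KO (log2 difference −1.09, limma adjusted p = 0.465). The difference of Acsl5 (−0.65) lay within the range of these enzymes, and those of Acsl1, Acsl3 and Acsl4 were closer to 0 than any of the 7.

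PPAR alpha is the fatty acid receptor whose target genes include Acsl1. Its 12 listed targets had 8 positive and 4 negative differences (median 0.05). Pdk4, which restrains pyruvate oxidation, had 5.15 and 3.11 FPKM in WT, against 2.15 and 1.62 FPKM in KO, and Vnn1, pantetheinase, had 10.9 FPKM in each WT library and 14.1 and 19.4 FPKM in KO. The difference of Vnn1 was 0.78 without KO replicate 1 (limma adjusted p = 0.0196) and 0.35 without KO replicate 2 (limma adjusted p = 0.464).

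**Figure D5:**
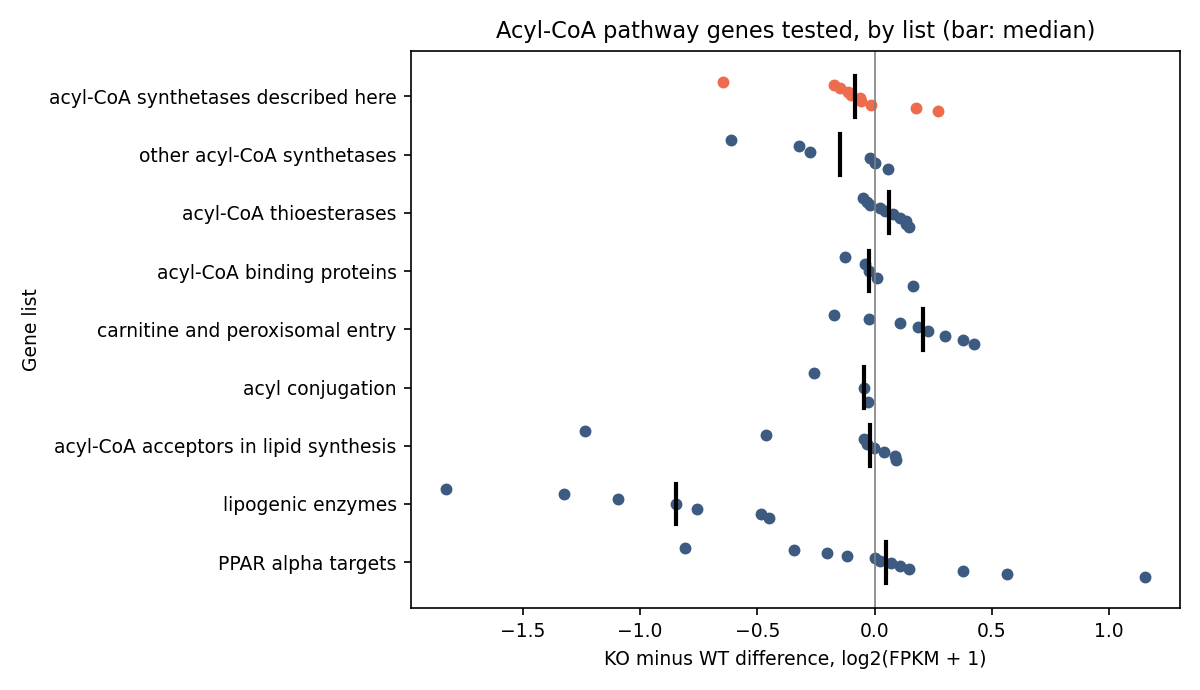
Difference (KO minus WT, in log2 units of FPKM + 1) of every tested gene, by list, with a bar at the list's median. The 10 synthetases (orange) have a median of −0.08 with Acsl5 apart at −0.65, and the lipogenic enzymes have the lowest median, −0.85.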

How the data were processed

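Liver RNA-seq values of 4 libraries (2 WT, 2 KO) were used, and groups and replicate numbers came from the sample titles. The authors deposited one FPKM table, in which each RefSeq transcript has a value in every library, per the file headers. Bowtie, TopHat and the mm10 build are named, with no version, in the submitters' processing notes. No source used here gives the program behind the FPKM values, the annotation release or whether counting was stranded. The table held 33170 rows of 23920 genes, and 8874 rows were at 0 in all libraries, so a 0 is read only as a listed value. Gene numbers of 23847 genes matched the RefSeq table of GRCm38.p6, which gave symbols and coordinates, and transcript models came from GENCODE M21.

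Rows were summed per gene number. Genes with a mean of at least 1 FPKM were compared on log2(FPKM + 1) by limma (version 3.58.1, R 4.3.3; moderated test, intensity trend), with Benjamini-Hochberg adjustment over the 9820 genes tested and a threshold of 0.05. Differences are KO minus WT and are damped in low genes. A fold is the ratio of mean FPKM values. An exact permutation test of 2 against 2 libraries gives a two-sided p of 0.333 at best and was not run. Depth was estimated from the steps of low values in genes with 1 row: between 45.5% and 47.2% lay within 0.1 of a whole fragment at the best depth, where 20% would by chance, so no count test was run and implied fragment numbers are approximate. They cover counting error only. The tests were also run on simulated data with independent noise for each gene and no outlying library. At changes of 1 and 2 log2 units, 82.5% and 98.7% of changed genes were called, and 4.94% of calls were unchanged genes. As KO replicate 2 stood apart in the real data, these shares cannot be carried over to them.

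The 10 genes, the lists and the rule for named genes (all 10; Srebf1; from each list of the pathway those past the threshold or else the 2 with the smallest p; Acss2, Cpt1a, Dbi and Baat) were chosen with earlier results of these data known. Alternatives were: no filter or a minimum of 5 FPKM, pseudocounts of 0.1 and 0.5, scaling by upper quartile or quantiles, a variance prior that was robust or had no trend, a block for the replicate number, single transcript rows, each library left out and a threshold of 0.1. Python 3.11.15, pandas 2.3.3, numpy 2.4.6 and matplotlib 3.10.9 made tables and figures.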

Additional observations from a re-analysis of the deposited data

How the results depend on the processing

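Of 140 values of the 10 genes under 14 alternatives, 131 kept their sign and their side of the threshold, 1 passed (Acsl5 without KO replicate 1) and 8 changed sign, each for a gene whose interval included 0. All 10 signs held under both scalings. The 7 genes called became 11 with a pseudocount of 0.1, 3 at a minimum of 5 FPKM, 4 with quantile normalization, 15 with a robust prior and 0 without a filter, where limma gave 1233 of 16520 genes an unadjusted p under 0.05. With a library left out they ran from 1 (without WT replicate 1) to 306 (without KO replicate 1), and were 4 without the other WT library and 117 without the other KO library. The cause was not tested. With the replicate block 19 genes were called. The labels' numbers are not shown to pair the samples: there are only 2 pairs, and the correlation over genes of the replicate 1 minus replicate 2 differences in WT and KO was 0.17. Those differences had the same sign in both genotypes for 10 of the 10 genes, and for 54.98% of all genes. The block changed no call among the 10.

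The median difference of the 10 was −0.11 with upper-quartile scaling and −0.11 with transcript rows as deposited, and ran from −0.086 to −0.035 with a library left out. With rows as deposited, Acsl3 was −0.38 and Acsl4 0.0078. With a library left out, differences that changed sign ran from −0.42 to 0.18 for Acsl1, −0.42 to 0.30 for Acsl4, −0.084 to 0.054 for Slc27a2, −0.14 to 0.016 for Slc27a5, −0.79 to 0.24 for Acss2, −1.69 to 0.47 for Aacs, −0.036 to 0.31 for Them4, −0.69 to 0.17 for Keg1, −0.12 to 0.027 for Baat and −0.11 to 0.028 for Dbi. With 2 libraries a group, the 95% intervals of the 10 genes reached from 0.25 (Slc27a4) to 0.67 (Acsl4) log2 units to either side of the difference, before adjustment over all genes.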
